A study of Mus musculus with 2 samples.

Results

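The genes followed here, 10 in all, encode surface receptors and regulators best known from T cells: the co-receptors Cd4, Cd8a and Cd8b1, the costimulatory receptors Cd28 and Icos, the receptors Cd5, Cd6 and Cd7, and the signalling regulators Trat1 and Ubash3a. They were taken by name, with every probe set that the array annotation assigns to exactly 1 of them. This gave 20 probe sets for 10 of 18194 named genes, and 0 further probe sets carried a member's name together with another gene's. The samples were natural killer (NK) cells flow-sorted from livers of naive wild-type mice of strain B6. One sample held DX5- NK1.1+ CD3- cells and the other DX5+ NK1.1+ CD3- cells, so both gates required NK1.1 and excluded surface CD3, and they differed in DX5, an antibody against the integrin alpha 2 chain. Total RNA of each sample was hybridised to 1 Affymetrix array (n = 1 per population), and how many mice contributed to it is not given.

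T cells recognise peptide on MHC molecules through the T cell receptor, whose signal is carried inwards by the CD3 chains. CD4 and CD8 bind the MHC molecule itself and bring the kinase Lck to the receptor, CD28 and ICOS add a costimulatory signal, and CD5, CD6 and UBASH3A restrain the response. NK cells and the other innate lymphocytes have no rearranged antigen receptor, yet they share part of this signalling machinery. The liver holds both circulating NK cells and resident cells close to type 1 innate lymphoid cells (ILC1), and the DX5- gate is known to be rich in the resident kind.

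The values are MAS5 intensities, 1 linear value for each probe set. The detection limit of an array was the 95th percentile over 154 probe sets for genes such as odorant receptors that neither lymphocytes nor liver should use much. The DX5- array had a limit of 98.4 and the DX5+ array one of 107. A gene was represented by its brightest probe set. Where it passed the limit on 1 array only, the limit stood in for the other value, and "at least" marks such a fold as a bound. Having 1 array per population leaves no replicate error, so no difference was tested, no p-value is given, and all folds describe these arrays. The log2 ratio (DX5- minus DX5+) varied between probe sets of one gene with an SD of 0.32, over 4050 genes, which covers probe noise only. When those genes were ranked by brightness into 4 bins, it was 0.38 in the dimmest bin and 0.24 in the brightest. The NK cell genes Ncr1 (2390 in DX5- and 1788 in DX5+ cells) and Klrk1 (6986 in DX5- and 6714 in DX5+ cells), which encode the activating receptors NKp46 and NKG2D, were bright on both arrays. Itga2, the gene of the DX5 antigen, read 29.0 in DX5- and 105 in DX5+ cells, below the limit on each array. In such sorted populations, fewer cells that carry a transcript and less of it per cell cannot be told apart.

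Of the 10 genes, Cd7 stood far higher in DX5- cells, Cd28 and Icos were bright in both populations, 5 genes lay close to the detection limit and mostly passed it in DX5- cells only, and Cd4 and Cd8b1 passed it in neither. In all, 8 genes were detected, 4 on both arrays and 4 on the DX5- array only. Against 3.61% of all 9862 detected genes, 3 of these 8 were at least 2-fold higher in DX5- cells: Cd7, Trat1 and Ubash3a. None was at least 2-fold lower (0 of 8, against 5.36% of all detected genes). The log2 ratio was above 0 for 7 of the 8, against 48.0% of all detected genes, and its median was 0.94 against -0.013. Because 4 of the 8 were detected only through the array on which they were higher, these counts describe the set and do not support a common direction. Being above the limit on the DX5- array only was itself seen in 2.91% of named genes. The count of members at least 2-fold higher was between 1 and 5 under 11 alternative settings. The share of all detected genes was between 3.02% and 10.4% under the same settings.

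**Figure D1:**
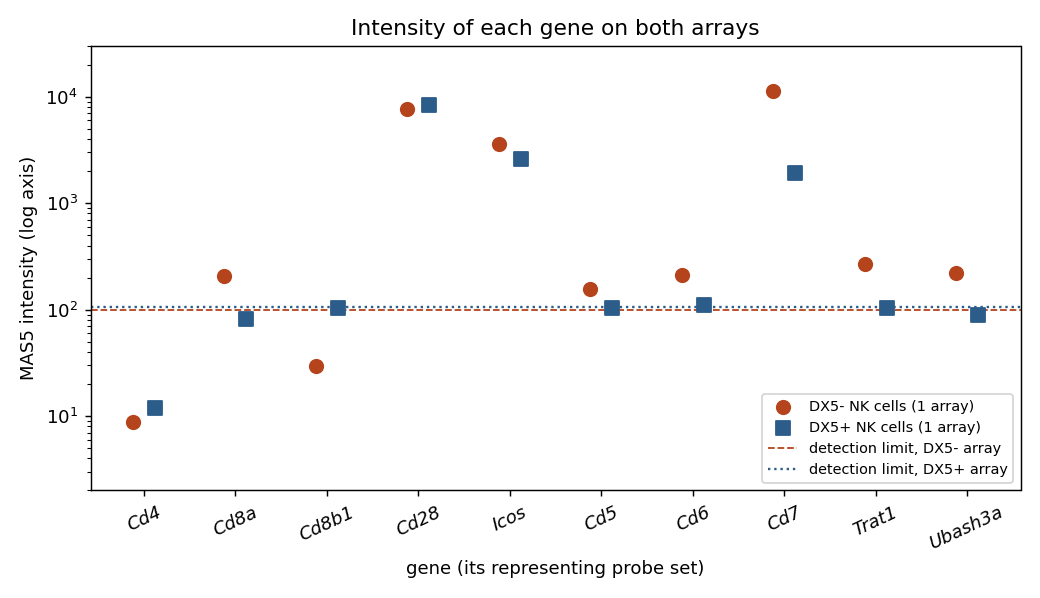
MAS5 intensity (vertical log axis) of the representing probe set of each of the 10 genes, with DX5- NK cells as circles and DX5+ NK cells as squares (1 array each) and each array's detection limit as a line. Cd28, Icos and Cd7 lie far above the limits, Cd8a, Cd5, Cd6, Trat1 and Ubash3a lie near them, and Cd4 and Cd8b1 lie below.

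Start regions are shown for Cd8a, Cd5, Trat1 and Ubash3a, the 4 of the 10 genes that were matched in the RefSeq promoter table. These were also the 4 genes above the limit in DX5- cells only, which was not the basis of the choice. Each region is the 250 bases before a start site from RefSeq on build GRCm38.p6, written 5′ to 3′ on the gene's strand; start regions of the other 6 genes were not used here. Capitals mark the 4 motifs that were searched on both strands, and no match overlapped another. RUNX factors bind TGTGGT. The factors TCF1 and LEF1 bind CTTTGAT. The letters GATAAG are those of the GATA family. T-box factors such as T-bet and Eomes bind AGGTGT.
Cd8a, chr6:71373177-71373426, plus strand: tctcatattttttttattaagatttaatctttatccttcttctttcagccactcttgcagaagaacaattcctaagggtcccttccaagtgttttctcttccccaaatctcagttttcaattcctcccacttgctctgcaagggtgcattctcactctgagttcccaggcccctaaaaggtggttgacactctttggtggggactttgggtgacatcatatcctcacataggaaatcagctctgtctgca
Cd5, chr19:10738975-10739224, minus strand: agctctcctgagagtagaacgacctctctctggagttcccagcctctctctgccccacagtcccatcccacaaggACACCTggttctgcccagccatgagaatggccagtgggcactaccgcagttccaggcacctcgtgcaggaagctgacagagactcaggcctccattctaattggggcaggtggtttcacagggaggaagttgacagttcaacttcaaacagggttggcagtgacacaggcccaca
Trat1, chr16:48772063-48772312, minus strand: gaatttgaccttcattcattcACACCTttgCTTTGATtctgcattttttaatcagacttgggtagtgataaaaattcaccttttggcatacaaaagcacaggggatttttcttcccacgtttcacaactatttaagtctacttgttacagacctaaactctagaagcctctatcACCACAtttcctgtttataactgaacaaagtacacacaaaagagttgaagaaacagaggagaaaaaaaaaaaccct
Ubash3a, chr17:31207816-31208065, plus strand: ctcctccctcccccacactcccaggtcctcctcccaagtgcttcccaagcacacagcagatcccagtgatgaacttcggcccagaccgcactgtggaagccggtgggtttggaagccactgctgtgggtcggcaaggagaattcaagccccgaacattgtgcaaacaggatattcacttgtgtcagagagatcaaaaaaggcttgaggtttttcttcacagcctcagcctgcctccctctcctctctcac

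The Trat1 region held 3 of the 4 motifs: the T-box letters with their first base 229 bases before the start site, the TCF1 letters 220 bases before it and the RUNX letters 76 bases before it. The Cd5 region held the T-box letters 175 bases before its start site. No motif was found in the Cd8a and Ubash3a windows. Among all 32851 start regions of the same length, 14.0% held the RUNX letters, 3.21% the TCF1 letters, 6.55% the GATA letters and 11.8% the T-box letters. A match describes letters and not a bound site.

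The co-receptor genes were dim. Cd4 read 8.80 in DX5- and 12 in DX5+ cells on its brighter probe set, and 4.30 in DX5- and 2.90 in DX5+ cells on the other, below the limit throughout and without a common direction. Cd8b1, the beta chain of the CD8 heterodimer on conventional cytotoxic T cells, read 29.6 in DX5- and 104 in DX5+ cells on its only probe set, also below both limits, so no fold is given. Its DX5+ value was close to the limit of 107, and it passed lower limits on that array: 78.0, the array median, and 82.2, the limit when 3 Crybg probe sets were left out of the limit families, a choice made after seeing the data. Its log2 ratio as a bound was then -0.57 and -0.46. Cd8a, the alpha chain, which can also pair with itself, was the co-receptor gene that passed the limit. Its representing probe set read 206 in DX5- and 81.3 in DX5+ cells, at least 1.94-fold higher in DX5- cells. That log2 ratio, a bound of 0.95, became a bound of 0.40 with the mean over probe sets in place of the brightest. The averaged DX5+ value was again below the limit. As deposited, the 5 probe set log2 ratios lay between 0.75 and 3.15. The other 4 Cd8a probe sets read 194, 171, 160.5 and 49.6 in DX5- cells, against 68.5, 69.2, 95.5 and 5.60 in DX5+ cells in the same order. All 5 were higher on the DX5- array, where 4 passed the limit, and 0 of 5 passed it on the DX5+ array. In the genome Cd8a and Cd8b1 are next to each other, and here they lay on opposite sides of the DX5- limit.

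The costimulatory receptor genes were bright in both populations. Cd28, the receptor for the B7 molecules CD80 and CD86, read 7668 in DX5- and 8442 in DX5+ cells, 1.1-fold lower in DX5- cells, and its second probe set read 4609 in DX5- and 5044 in DX5+ cells. The log2 ratios of these probe sets were -0.14 and -0.13, both smaller than the SD between probe sets of a gene, and the Cd28 ratio changed sign, to 0.079, under scaling to the hybridisation spike-ins. Icos, the inducible relative of CD28, read 3607 in DX5- and 2626 in DX5+ cells, 1.37-fold higher in DX5- cells. Its other probe sets read 2440 and 971.5 in DX5- cells, against 1390 and 638 in DX5+ cells. The 3 Icos log2 ratios were 0.46, 0.81 and 0.61, all positive and all above 0.32.

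Ctla4, the inhibitory receptor gene that lies between Cd28 and Icos among protein-coding genes, read 1325 in DX5- and 434 in DX5+ cells, 3.05-fold higher in DX5- cells. The 3 neighbouring genes thus had log2 ratios of -0.14 (Cd28), 1.61 (Ctla4) and 0.46 (Icos). Pdcd1, which encodes the checkpoint receptor PD-1, read 286 in DX5- and 62.6 in DX5+ cells, where it was below the limit, at least 2.69-fold higher. Ctla4 and Pdcd1 were the 2 of 7 detected CD28 family and B7 ligand genes that passed 2-fold. For comparison, 3.61% of all detected genes were at least 2-fold higher in DX5- cells. The list had a median log2 ratio of 0.83. The detected ligand genes lay within 2-fold. Cd274 and Pdcd1lg2, which encode the PD-1 ligands PD-L1 and PD-L2, read 4281 and 1195 in DX5- cells, against 2400 and 619 in DX5+ cells. They were 1.78-fold and 1.93-fold higher in DX5- cells, and past 2-fold under spike-in scaling. Cd86 read 258 in DX5- and 278 in DX5+ cells, Icosl read 196 in DX5- and 187 in DX5+ cells, and Cd80 was below the limit on both arrays. Lag3, an MHC class II receptor related to CD4 whose gene is the next protein-coding gene to Cd4, was named after its values were seen. It read 524 in DX5- and 30 in DX5+ cells, where it was below the limit, at least 4.92-fold higher, while Cd4 was below both limits.

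**Figure D2:**
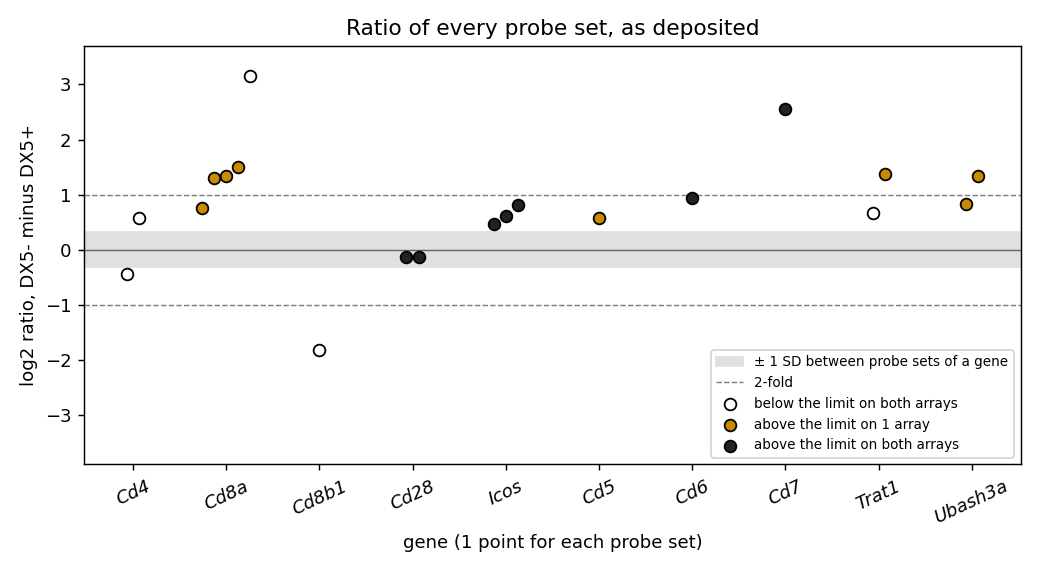
Log2 ratio of intensities, DX5- minus DX5+ (vertical axis), for each of the 20 probe sets of the 10 genes, coloured by the number of arrays on which the probe set passed its limit; the grey band is ± 1 SD between probe sets of a gene (0.32) and dashed lines mark 2-fold. The Cd28 probe sets lie within the band, and the 5 Cd8a and 3 Icos probe sets all lie above it.

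Cd7 encodes a small immunoglobulin-family receptor, carried in humans by T cells and NK cells. It read 11322 in DX5- and 1929 in DX5+ cells, 5.87-fold higher in DX5- cells. Of the 8773 genes measured on both arrays, 26 had a ratio at least as large, Cd7 included. It rested on 1 probe set, so its agreement between probe sets could not be seen. Sectm1b, the next protein-coding gene to Cd7 and a relative of the gene of a human CD7 ligand, read 37.1 in DX5- and 44.8 in DX5+ cells, below both limits.

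Cd5 and Cd6 are neighbouring genes that encode scavenger receptor-type inhibitory receptors of T cells. Cd5 read 155 in DX5- and 104 in DX5+ cells, at least 1.45-fold higher in DX5- cells. Cd6 read 212 in DX5- and 111 in DX5+ cells, 1.91-fold higher, and its DX5+ value was just above the limit. Each had 1 probe set and each ratio was under 2-fold. Of 4 listed ligand genes of CD6 and CD7, Alcam, which encodes a ligand of CD6, was the 1 detected. Its brightest of 5 probe sets read 91.5, below the limit, in DX5- and 180.5 in DX5+ cells, at least 1.83-fold lower in DX5- cells. The log2 ratio, -0.88 as a bound, was -0.35 with the mean over probe sets and 0 under a limit at the 99th percentile.

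Trat1 and Ubash3a act next to the antigen receptor. Trat1 encodes a transmembrane adaptor associated with the T cell receptor complex. Its representing probe set read 267 in DX5- and 102.5 in DX5+ cells, at least 2.51-fold higher in DX5- cells. The second read 96.1 in DX5- and 60.5 in DX5+ cells, below both limits, with a log2 ratio of 0.67. Ubash3a, a suppressor of receptor signalling, read 223 in DX5- and 88.5 in DX5+ cells, at least 2.09-fold higher, and 130 in DX5- and 73.2 in DX5+ cells on its second probe set. With the mean over probe sets, the averaged DX5+ values of both genes were below the limit. The Trat1 log2 ratio was then at least 0.59 and that of Ubash3a at least 0.68, which left Cd7 as the 1 gene counted past 2-fold. As deposited, the probe set log2 ratios were 1.38 and 0.67 for Trat1 and 1.33 and 0.83 for Ubash3a.

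The size of these dim ratios can be read against genes of like brightness. Cd8a, Cd5, Cd6, Trat1 and Ubash3a had mean intensities (geometric, over both arrays) between 127 and 165, a range taken from their own values. Of 609 genes in that range, 6.40% were at least 2-fold higher in DX5- cells before any bound was applied and 12.2% at least 2-fold lower. Before bounds, Cd8a (2.54-fold), Trat1 (2.61-fold) and Ubash3a (2.52-fold) were past 2-fold and Cd5 (1.49-fold) and Cd6 (1.91-fold) were not. Once bounds were applied, 4.43% of the 609 genes were at least 2-fold higher.

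**Figure D3:**
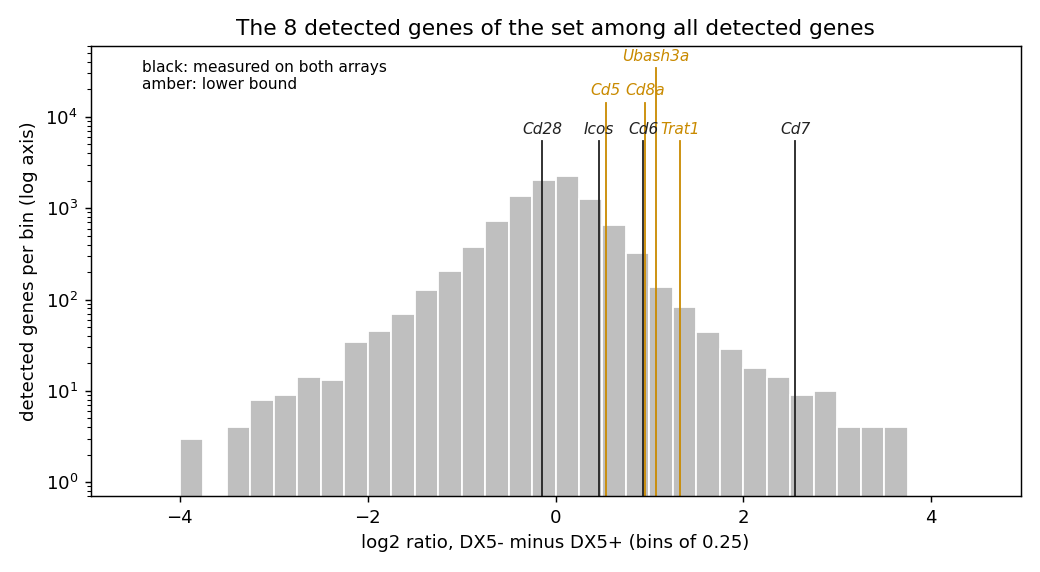
Number of detected genes (vertical log axis) by log2 ratio, DX5- minus DX5+ (horizontal axis, bins of 0.25), with a vertical line for each of the 8 detected genes of the set; amber lines are lower bounds. Cd28 lies near 0, Icos, Cd5, Cd6, Cd8a, Ubash3a and Trat1 lie between 0.46 and 1.33, and Cd7 lies at 2.55.

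The partners of these receptors were read from lists of related genes. Most detected genes of the T cell receptor complex itself read higher in DX5- cells. At 2-fold, 6 of 9 were higher and 1 was lower, against 3.61% and 5.36% of all detected genes. The median log2 ratio was 1.74. Cd3g read 14036 in DX5- and 1072 in DX5+ cells, Cd3d 2607 in DX5- and 782 in DX5+ cells, and Cd3e 373 in DX5- and 83.1 in DX5+ cells, the DX5+ value below the limit. The gamma chain variable segments Trgv1 and Trgv4 read 1679 and 461 in DX5- cells, against 154 and (below the limit) 94.9 in DX5+ cells. Cd247, whose zeta chain also serves NK cell receptors, was the 1 lower gene, with 1144 in DX5- and 2425 in DX5+ cells; under spike-in scaling and with the mean over probe sets (log2 ratio -0.70) it was within 2-fold. The Trgv4 log2 ratio was a bound of 2.11, and a bound of 1.11 with that mean. A probe set annotated to the beta variable segment Trbv1 read 17369 in DX5- and 8519 in DX5+ cells, whereas another of the same name read 139 in DX5- and 129 in DX5+ cells. Among alpha variable segments, Trav9d-3 read 4736 in DX5- and 2799 in DX5+ cells, 1.69-fold higher in DX5- cells. Trav12n-2 read 114 in DX5- and 144 in DX5+ cells, 1.26-fold lower in DX5- cells. Receptor segments form families of closely similar sequence, so these names are uncertain. The remaining 5 of the 14 genes were below both limits, Tcra among them (9.20 in DX5- and 20.9 in DX5+ cells). Of the summed intensities, Trbv1 made up 17369 in DX5- and 8519 in DX5+ cells, and Cd3g 14036 and 1072. The sums of all 14 were 42714 in DX5- and 16255 in DX5+ cells. Most of these genes were thus higher on the same array as Cd7, Trat1, Ubash3a and Cd8a, and the part of T cells in those ratios was not tested; Cd4 and Cd8b1 were below the limit on both arrays.

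Among kinases and adaptors next to the receptor, 16 were listed and 14 had a probe set of their own. Against 3.61% of all detected genes, 4 of 13 detected passed 2-fold, all of them higher in DX5- cells (median log2 ratio 0.31). They were Plcg1, a phospholipase (672 in DX5- and 139 in DX5+ cells), the kinase gene Zap70 (3515 in DX5- and 1362 in DX5+ cells), the adaptor gene Lcp2 (6228 in DX5- and 2909 in DX5+ cells) and Rhoh, a small GTPase (1851 in DX5- and 896 in DX5+ cells). The count was 1 of 13 with the mean over probe sets. Plcg1 moved most, with a log2 ratio of 2.28 on its brightest probe set and at least 0.22 with the mean. The latter was a bound, because the averaged DX5+ value was below the limit. The other Plcg1 probe sets read 83.4 and 34.1 in DX5- cells, against 58.7 and 3.10 in DX5+ cells, below both limits. Other probe sets of Zap70 had smaller ratios, 1.60-fold and 1.26-fold, and a dimmer one of Rhoh 1.09-fold. Lat, the transmembrane adaptor built like Trat1, read 2933 in DX5- and 1150 in DX5+ cells, 2.55-fold higher in DX5- cells, and was the 1 of 5 detected adaptors past 2-fold. Sit1, another of them, read 236 in DX5- and 123 in DX5+ cells, 1.91-fold higher.

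Negative regulators of the same pathway mostly lay within 2-fold (12 of 13 detected), as did most detected genes (8977 of 9862). Of 13 detected, 1 passed 2-fold and was higher in DX5- cells (median 0.12). It was Dgka, a diacylglycerol kinase, which read 2809 in DX5- and 934 in DX5+ cells. Ubash3b, the broadly expressed relative of Ubash3a, read 654 in DX5- and 941 in DX5+ cells, 1.44-fold lower in DX5- cells, so the relatives differed in the sign of their ratios.

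Transcription factors that set the T lineage and the choice between CD4 and CD8 were split. Of 12 detected, 4 passed 2-fold, and the median was 0.12. Higher were Bcl11b (1018 in DX5- and 218 in DX5+ cells) and Tox (1503 in DX5- and 376 in DX5+ cells). Lower were Myb (1469 in DX5- and 15442 in DX5+ cells) and Lef1 (819.5 in DX5- and 2797 in DX5+ cells). Zbtb7b, which directs CD4 lineage choice, read 335 in DX5- and 219 in DX5+ cells, and Runx3, which favours CD8 expression, 6331 in DX5- and 5910 in DX5+ cells. Among surface molecules shared by T and NK cells, 5 of 12 passed 2-fold. Higher in DX5- cells were Cd96 (2.97-fold), Il2ra (2.71-fold) and Cd69 (2.56-fold), and lower were Crtam (2.93-fold) and Cd2 (2.81-fold). Their median was 0.82.

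**Figure D4:**
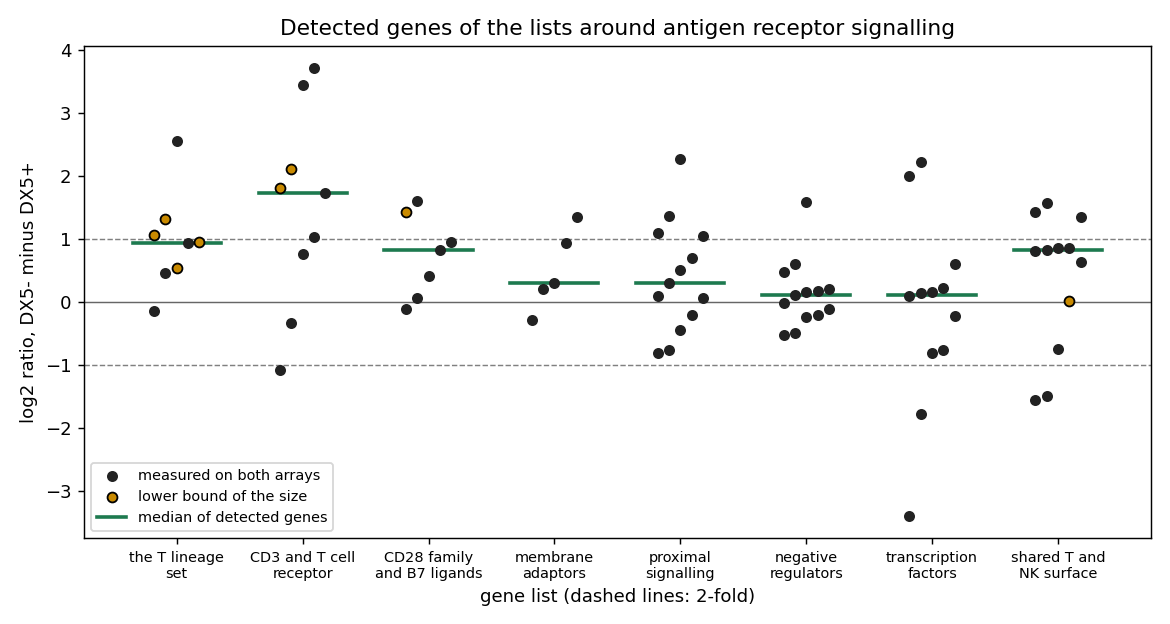
Log2 ratio, DX5- minus DX5+ (vertical axis), of the detected genes in the set and in 7 lists around antigen receptor signalling; green bars are medians, amber points are lower bounds of the size and dashed lines mark 2-fold. The median is 0.94 in the set, 1.74 for CD3 and T cell receptor genes and 0.12 for negative regulators and for transcription factors.

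Some other cells carry these receptors, and their markers were read beside them. Dendritic cells, some of which express CD8 alpha or CD4, had 2 of 7 detected markers past 2-fold. They were Ccr9 (3.51-fold) and Siglech (3.39-fold), both lower in DX5- cells. Under a limit at the 99th percentile the Siglech log2 ratio was a bound of -0.48. The summed intensity of the 9 markers measured was 8025 in DX5- and 10316 in DX5+ cells. Itgax made up 5739 and 3971 of these sums, and Ccr9 made up 1349 and 4731. Itgax was 1.45-fold higher in DX5- cells, whereas 6 of the 7 detected markers were lower. B cells, a subset of which carries CD5, had 0 of 6 detected markers past 2-fold in either direction, and 7 markers summed to 1697 in DX5- and 1332 in DX5+ cells. Macrophage markers were below both limits for 8 of 11, C1qa (7.30 in DX5- and 7.70 in DX5+ cells) and Clec4f (6.10 in DX5- and 54.2 in DX5+ cells) among them. Lyz2 (3.44-fold) and Csf1r (at least 2.36-fold) were the 2 past 2-fold, both lower in DX5- cells, and the 11 markers summed to 608 in DX5- and 1581 in DX5+ cells. The Csf1r probe sets disagreed: the brightest read 75.9 in DX5- and 233 in DX5+ cells, the 1 above both limits read 112 in DX5- and 129.5 in DX5+ cells, and a dimmer one ran the other way (95.6 in DX5- and 21.8 in DX5+ cells). Csf1r was not detected with the mean over probe sets, and its log2 ratio was 0 under a limit at the 99th percentile. Of 4 detected markers of NKT and gamma delta T cells, Zbtb16, the factor PLZF, was the 1 past 2-fold. It read 820 in DX5- and 405 in DX5+ cells, and was within 2-fold (log2 ratio 0.85) with the mean over probe sets. The 6 markers summed to 6402 in DX5- and 3838 in DX5+ cells, of which Maf made up 4910 and 2534. The part of these cells in the ratios of the set was not tested.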

How the data were processed

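The deposited table holds an intensity for each of 45101 probe sets on each array. Per the submitters' processing notes the authors used MAS5 to make these intensities, with the version not given in the sources used here. Values are linear, and after removal of the lowest and highest 2% the mean was 500.004 (DX5-) and 500.003 (DX5+), so both share a scaling target. Medians were 70.3 (DX5-) and 78.0 (DX5+). The values used here carry no detection calls, and the number of arrays limits the precision.

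Probe sets were named from the platform annotation: 34958 had 1 symbol, 932 had several and 9211 were unnamed here. Of those with 1 symbol, 34754 were found by gene identifier in RefSeq's GRCm38.p6 genes. Intensities were taken to log2 without offset (Python 3.11.15, pandas 2.3.3, statsmodels 0.14.6). The limit families were opsins, crystallins, keratin-associated proteins, and taste, vomeronasal and olfactory receptors; a bound with the wrong sign was replaced by a ratio of 1. The steps were tested on simulated data with changes placed in bright genes only, so that test does not cover genes near the limit. An alternative log2 ratio counted as moved when it differed by more than the SD between probe sets, and an alternative count when it differed by more than 1.5 times.

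The members and the 15 gene lists were chosen with earlier results of these data known. Named genes were the members, list genes past 2-fold (up to 4 per list and direction), the CD3 chains and list genes next to a member. Others are given for contrast and were chosen after their values were seen. Of the lists, those of resident and circulating NK cells and of ILC2 and ILC3 are given in the closing section. Alternatives were 10 planned ones (limit, scaling, probe sets, offset) and 1 added later.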

Additional observations from a re-analysis of the deposited data

How the results depend on the processing

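Settings changed which dim genes of the set were counted, while Cd7 stayed past 2-fold throughout, with a log2 ratio between 2.51 and 2.77 over 11 alternatives. The 3 genes at least 2-fold higher became 5 with quantile normalization, with intensity-dependent centring and with spike-in scaling. Of all detected genes, 4.13%, 3.91% and 6.32% were at least 2-fold higher in these settings, in the same order. Spike-in scaling moved the median log2 ratio of all detected genes from -0.013 to 0.20. The members counted became 1 with the mean over probe sets (3.31% of all detected genes), where Trat1 and Ubash3a had bounds only. They were also 1 under a limit at the 99th percentile (3.65%). At that stricter limit (317 for DX5- and 157 for DX5+, which by construction leaves fewer genes) 3 members were detected, with a median log2 ratio of 0.46; with the mean over probe sets that median was 0.61. Without a limit 1 of 10 members, Cd8b1, was at least 2-fold lower (-1.82), as were 2838 of all 18194 genes. Spike-in scaling turned the Cd28 log2 ratio to 0.079. For results whose cause is not stated here, the cause was not tested. The limit families include 3 Crybg probe sets that are not lens crystallins. Leaving them out, a choice made after seeing the data, put the limits at 76.0 and 82.2. As bounds, the Cd8a log2 ratio was then 1.33 and the Cd8b1 ratio -0.46. Cd86 changed sign with spike-in scaling (0.11). Under that scaling 6.32% of all detected genes were at least 2-fold higher, as were 4 CD28 family and ligand genes and 7 shared surface genes, and 0 receptor complex genes were at least 2-fold lower. No paired analysis was possible because each population has 1 array, and no replicate could be left out. Without replicates or detection calls, differences among intensities near the limit cannot be separated from noise.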

Other observations

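The arrays were also read for markers of the liver NK populations themselves, lists that published work on such cells informed. These lists were also chosen with earlier results of these data known, so their counts are description and not independent support. All 9 detected markers of resident NK cells and ILC1 were at least 2-fold higher in DX5- cells (median log2 ratio 2.76), against 3.61% of all detected genes. Cxcr6, a chemokine receptor gene, read 7425 in DX5- and 772 in DX5+ cells, Il21r 6412 in DX5- and 829 in DX5+ cells, and Tmem176b 2747 in DX5- and 393.5 in DX5+ cells. Itga1, the gene of the integrin alpha 1 chain, read 999 in DX5- and 44.5 in DX5+ cells, at least 9.37-fold higher. Its log2 ratio was a bound of 3.23, and a bound of 1.5 with the mean over probe sets. Of 9 detected markers of circulating NK cells, 7 were at least 2-fold lower in DX5- cells, against 5.36% of all detected genes. None was at least 2-fold higher (0 of 9, median -2.86). Eomes, the gene of an NK cell T-box factor, read 1991 in DX5- and 16107 in DX5+ cells, and Cma1, a chymase gene, 476 in DX5- and 6468.5 in DX5+ cells. Cx3cr1, a chemokine receptor gene, read 127 in DX5- and 931 in DX5+ cells. With the mean over probe sets the averaged DX5- value of Cx3cr1 was below the limit. Its log2 ratio of -2.87 then became a bound of -0.81, and the count of markers at least 2-fold lower became 6. As deposited, the Cx3cr1 probe sets had log2 ratios of -2.87 and, below both limits, -3.28. S1pr5, a receptor used in tissue exit, read 35.8 in DX5- and 1531 in DX5+ cells, at least 15.6-fold lower. The limit at the 99th percentile brought the S1pr5 log2 ratio to -2.27 and that of Cx3cr1 to -1.55, both as bounds. Markers of ILC2 and ILC3 were sparse. Of 10 listed, 4 had a probe set of their own and 3 were detected, with 0 past 2-fold in either direction. Their median log2 ratio was 0.036. With no detection limit the median was -0.55 and 2 of 4 were at least 2-fold lower, as were 2838 of all 18194 genes.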
